A study of Mus musculus with 26 samples.

Results

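A group of 9 well-known mouse long noncoding RNAs (lncRNAs) was followed through RNA-seq libraries of mammary tumor cells that lack another lncRNA, MaTAR25, and through the lists of chromatin sites pulled down with MaTAR25: Malat1, Neat1, Gas5, Snhg1, Snhg12, Kcnq1ot1, H19, Meg3 and Dancr. The 9 genes were picked by name among 45318 genes listed in each count file. Of the 9, 7 had a row in the count files and 5 of these (Malat1, Neat1, Gas5, Snhg12 and Kcnq1ot1) had enough reads to be tested among 15023 genes. The reference identifiers of Snhg1 and Dancr matched no row, so their own RNA was not analysed here. H19 and Meg3 were listed at or near 0.

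The cells were 4T1, a BALB/c line of highly metastatic triple-negative mammary carcinoma. The control group held 2 libraries of cells labeled wild type, which carried Cas9 and a guide RNA against Renilla luciferase. The KO1 group held 3 libraries and the KO2 group 4 libraries of cells labeled MaTAR25-/-. KO1 and KO2 are each a clone grown from a sorted cell in which a pair of guide RNAs removed DNA around the MaTAR25 start, so each knockout group is a clone and its libraries are not separate knockouts. The study describes its control cells as clones of sorted cells too, so a comparison with control may set clone against clone. The p-values below therefore measure the spread between these libraries, and nothing in the labels says that libraries of a group came from separate cultures. ChIRP-seq, in which biotin-labeled DNA oligos fish out an RNA with the chromatin bound to it, gave 4 peak lists. Of these, 3 came from wild-type 4T1 cells, with a total pool of 14 MaTAR25 oligos or with its odd-numbered or even-numbered oligos. The fourth list came, with the total pool, from cells that the labels call primary NDL cells of a mammary tumor, of FVB strain and genotype MMTV-PyMT. The study instead describes this list as made in cNeu cells, a cultured line of the MMTV-Neu-NDL model, so the source of these cells is uncertain.

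LncRNAs are long transcripts with no known protein product. Malat1 lies in nuclear speckles and Neat1 is the scaffold around which paraspeckles, nuclear bodies rich in RNA-binding proteins, are built. Gas5, Snhg1, Snhg12 and Dancr are host genes: their introns carry small nucleolar RNAs (snoRNAs), which guide the modification of ribosomal RNA, while their spliced exons are exported and, for Gas5 and several Snhg genes, are broken down by nonsense-mediated decay. Kcnq1ot1, H19 and Meg3 are imprinted, that is, made from the copy of a single parent. Kcnq1ot1 silences neighboring genes on its own chromosome copy. The libraries were made from polyadenylated RNA. The mature 3′ end of Malat1 and that of the long Neat1 isoform are not made by the usual polyadenylation, so their counts here reflect what such a selection retains, and the share lost was not measured.

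The libraries held from 25367211 to 61110585 counts on genes. Of the targeted gene 1200007C13Rik (MaTAR25), 35 and 30 reads were counted in control, against 2, 7 and 0 for KO1 and 11, 1, 9 and 6 for KO2, a log2 fold change of -2.63 (SE 0.82, edgeR adjusted p = 0.0561), and every knockout library lay below both controls in CPM, the read count scaled to library size. KO2 replicate 2 was the shallowest library, and its file lists each gene 3 times with the same counts, of which 1 was used. Over the tested genes, KO2 libraries were less alike (pairwise Pearson r of log2(CPM + 1), 0.960 to 0.979) than KO1 libraries (0.987 to 0.991), and KO2 replicate 2 held both the lowest and the highest of the KO2 values. It also had the lowest level of the epithelial marker Epcam in any library, 104 CPM against 257 to 488 CPM in the other 8. Results that rest on it are given below with and without it. Mammary epithelial markers summed to 3831 and 4021 CPM in control, 5208 to 7472 CPM in KO1 and 2275 to 4686 CPM in KO2, with 9 of 12 at 1 CPM or more in every library. Of these, Cdh1 (E-cadherin) was called lower in KO (log2 fold change -0.65, adjusted p = 0.0684), and the keratins Krt7 (1.89, adjusted p = 0.00468) and Krt8 (1.32, adjusted p = 0.0232) were called higher in KO1. These were 1 of 9 markers tested in KO and 2 of 9 in KO1. Of all genes tested, 10.7% were called lower in KO and 15.9% higher in KO1. In KO2 against KO1, 4 of the 9 were called lower and 0 higher, with a median log2 fold change of -0.58. Of all genes, 9.43% were called lower and 10.2% higher between the clones. The 10 markers of leukocytes, endothelium, fibroblasts, adipocytes and glia summed to 25.0 and 31.1 CPM in control, 42.7 to 70.7 CPM in KO1 and 18 to 54.4 CPM in KO2. Of these, Dcn stood at 0 in all 9 libraries, Cd68 reached 28.3 CPM in KO1 replicate 2 and Pdgfra 46.9 CPM in KO2 replicate 4. The macrophage marker Cd68 was called higher in KO1 (2.39, adjusted p = 0.0958), and the endothelial marker Cdh5, with 1 and 0 counts in control and 25, 33, 4 and 33 in KO2, was called higher in KO2 (adjusted p = 0.0317). Krt7, Krt8, Cd68 and Cdh5 are named after their values were seen. Their part in the results below was not tested.

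The snoRNA host genes Gas5 and Snhg12 fell in both knockout clones, and Kcnq1ot1 rose in both. Of the 5 lncRNAs tested, 2 were called lower and 1 higher in KO against control at an adjusted p below 0.1. Of all 15023 genes, 10.7% were called lower and 11.9% higher in this comparison. In KO1 against control the same 2 were lower and the same 1 higher (background 15.7% and 15.9%), as they were in KO2 against control (15.0% and 16.5%). These comparisons share the control libraries. Malat1 and Neat1 were not called in any of them, although Neat1 was called higher in KO1 with no filter on low counts (adjusted p = 0.0686). Of the 27 other genes named here as called in KO against control, 22 were not called without control replicate 1 and 20 without control replicate 2, and Zfas1, Snhg17, 1700020I14Rik and Smarca4 were called without either. In bulk RNA, fewer cells of a type and less RNA per cell cannot be told apart.

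**Figure D1:**
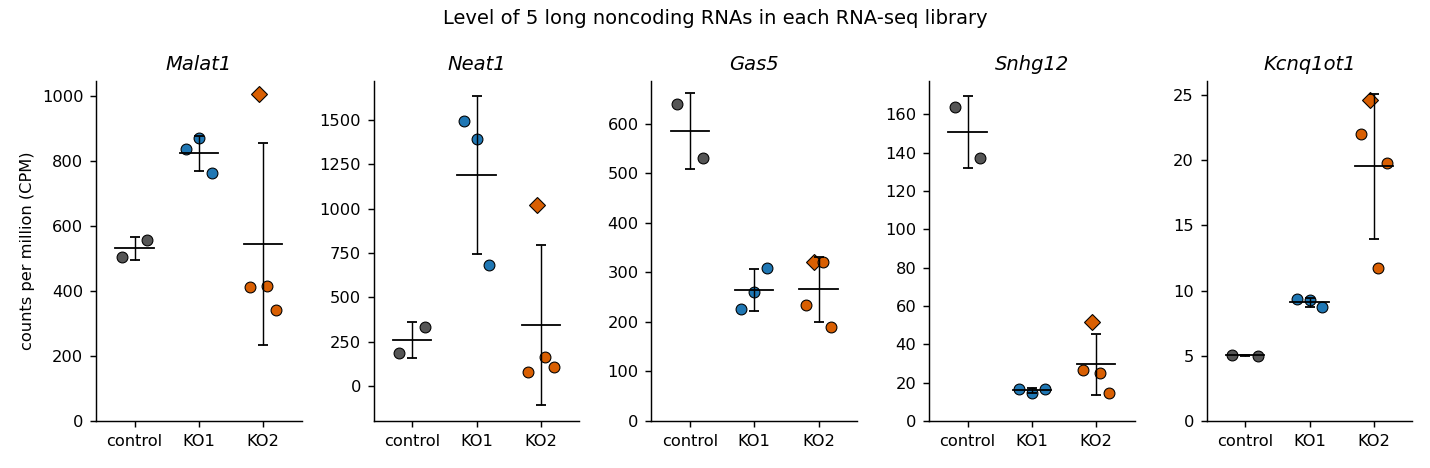
Each point is a library; the vertical axis is the level in CPM on a linear scale with its own range for each gene, and the line and bar are the group mean ± SD (n = 2 control, 3 KO1 and 4 KO2 libraries). The diamond is KO2 replicate 2, which stands above the other KO2 libraries for Malat1 and Neat1. The SD bar of Neat1 in KO2 runs below 0.

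Snhg12 showed the largest fold change of the 5. It hosts several snoRNAs on chromosome 4 (GRCm38 chr4:132308623-132311024, plus strand). Its level was 164 and 137 CPM in control, 16.8, 14.6 and 16.8 CPM in KO1, and 26.5, 51.7, 25.0 and 14.7 CPM in KO2. All 7 knockout libraries lay below both controls, and KO2 replicate 2 was the highest of them. In the fit, Snhg12 was 6.36-fold lower in KO than in control (log2 fold change -2.67, SE 0.40, adjusted p = 0.00356). The clones taken singly gave -3.23 (SE 0.42) for KO1 and -2.36 (SE 0.37) for KO2. KO2 lay above KO1 by 0.87 on the log2 scale (SE 0.35), which did not pass the threshold (adjusted p = 0.135). It did pass under 4 of 15 alternatives: with DESeq2 (adjusted p = 0.0694), with no filter on low counts (0.0882), with a replicate block (0.0937) and without KO2 replicate 4 (0.0468).

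Gas5, named for its accumulation in growth-arrested cells, fell by less and to nearly the same level in both clones. It lies on chromosome 1 (chr1:161034422-161038539, plus strand), antisense to the first part of Zbtb37. Its level was 640 and 531 CPM in control, 225, 260 and 310 CPM in KO1, and 234, 321, 321 and 189 CPM in KO2. No knockout library reached the lower control. The log2 fold change in KO was -1.14 (SE 0.20, adjusted p = 0.0063), or 2.20-fold lower. It was -1.14 (SE 0.24) in KO1 and -1.14 (SE 0.23) in KO2, and the difference between the clones was 0.01 (SE 0.21, adjusted p = 0.987). Without control replicate 1, the library with the highest Gas5 level, the change in KO was -0.99 and no longer passed (adjusted p = 0.121). Zbtb37, which overlaps Gas5 on the other strand, had 33.1 ± 3.38 CPM in control (SD, n = 2) and 24.2 ± 3.41 in KO (n = 7), a log2 fold change of -0.45 (SE 0.19) that was not called (adjusted p = 0.145), although every knockout library lay below both controls. The sources do not say whether the counting used strand, so reads of the overlap cannot be assigned with certainty.

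The start sites of Gas5 and Snhg12, the pair of members that fell together, are shown for comparison of their bases. Each stretch runs from 60 bases before to 50 bases after a transcript start in RefSeq (GRCm38.p6), 5′ to 3′ on the gene's strand. Capitals mark the letters TATATA and CCTTTC.
Gas5, chr1:161035106-161035215: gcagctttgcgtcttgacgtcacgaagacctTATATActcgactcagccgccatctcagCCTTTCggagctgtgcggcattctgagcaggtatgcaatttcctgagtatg
Snhg12, chr4:132308618-132308727: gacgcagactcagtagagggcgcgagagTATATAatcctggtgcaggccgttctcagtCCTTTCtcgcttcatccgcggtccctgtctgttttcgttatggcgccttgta
Snhg1, chr19:8723427-8723536: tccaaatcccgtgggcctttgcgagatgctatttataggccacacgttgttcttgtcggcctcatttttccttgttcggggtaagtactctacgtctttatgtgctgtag

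Both starts carried TATATA, 29 bases upstream in Gas5 and 32 bases upstream in Snhg12, and CCTTTC across the start itself. The Snhg1 stretch held neither. Searched on both strands, TATATA (its own reverse complement) lay in 2.01% and CCTTTC (reverse complement GAAAGG) in 8.68% of 32851 promoter stretches of the same 110 bases, and both lay in 0.174%. The letters were picked after the Gas5 and Snhg12 stretches had been read, so the shares are a description and carry no test. A second, more upstream RefSeq start of Gas5 held neither, as did the stretches of Malat1, Kcnq1ot1 and Dancr. Of the Meg3 stretches, 1 held TATATA at 27 bases upstream and the other held neither.

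Of 17 other snoRNA host genes listed for comparison, 13 had a row in the count files and 10 were tested. In KO against control 5 were called lower and 0 higher, with a median log2 fold change of -0.70 against 0.06 over all genes tested. Zfas1, antisense to the start of Znfx1, showed the largest change, from 428 ± 83.4 CPM in control (SD, n = 2) to 111 ± 26.5 CPM in KO (n = 7), a log2 fold change of -1.95 (SE 0.22, adjusted p = 0.00125). Snhg15 fell by 1.35 on the log2 scale (SE 0.22, adjusted p = 0.00427) and Snhg17 by 1.26 (SE 0.20, adjusted p = 0.0041). Snhg6, at -0.66 (adjusted p = 0.0363), and Snhg20, at -1.04 (adjusted p = 0.0546), were the others called lower and are named after their values were seen. In KO1 against control 7 of the 10 were called lower, in KO2 6, and 0 were called higher in either clone. Of all genes, 10.7% were called lower and 11.9% higher in KO against control. The shares were 15.7% and 15.9% in KO1, and 15.0% and 16.5% in KO2. Between the clones, Snhg8 was higher in KO2 (0.95, SE 0.21, adjusted p = 0.0223), from 53.3 CPM in KO1 to 103 CPM in KO2, and Snhg20 was lower in KO2 (-0.70, SE 0.24, adjusted p = 0.0893). These were 1 of 10 in each direction, against 10.2% higher and 9.43% lower of all genes. Without KO2 replicate 2, 6 of 9 hosts tested were called lower. Over all alternatives the number called lower ran from 2 to 7, the lowest with a control library left out.

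**Figure D2:**
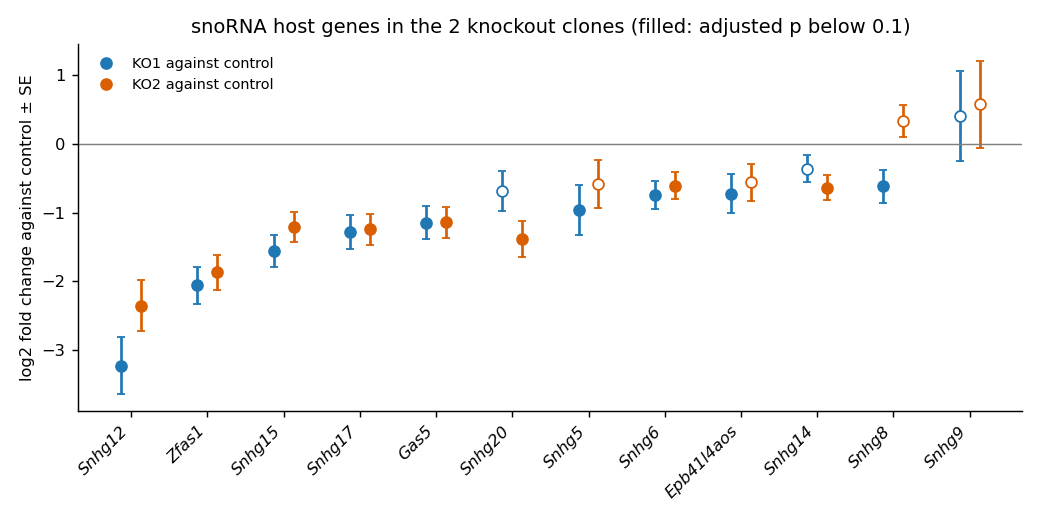
The vertical axis is the log2 fold change against control with its standard error, for Gas5, Snhg12 and the 10 other snoRNA host genes tested, ordered by the mean of both clones; blue is KO1 and orange KO2. Filled points passed an adjusted p below 0.1. Snhg12 and Zfas1 have the lowest values in both clones, and Snhg9, at under 1 CPM, the widest errors.

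Nonsense-mediated decay is the pathway known to break down spliced Gas5. Of 15 of its factors tested, 3 were called higher and 1 lower in KO against control, with a median log2 fold change of -0.04. Over all genes the shares were 11.9% and 10.7%, so these counts are no result about the list. Smg8, a regulator of the decay kinase Smg1, rose by 0.82 (SE 0.22, adjusted p = 0.0341). The exon junction proteins Magoh and Eif4a3 rose by 0.69 (SE 0.23, adjusted p = 0.0698) and 0.60 (SE 0.18, adjusted p = 0.0534). Upf3a fell by 0.69 on the log2 scale (SE 0.16, adjusted p = 0.0195). The other 11, the helicase Upf1 among them (0.37, adjusted p = 0.299), did not pass.

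The snoRNAs inside the introns of Gas5, Snhg12 and Dancr had 0 counts or, for Snora16a, at most 1 count in a library. The 8 snoRNA genes annotated inside Snhg1 (chr19:8723475-8726443, plus strand) differed, with 36 to 602 counts in each library. Of these 8, 2 were called higher in KO against control, both above every control library: Gm25855, from 1.77 ± 0.946 CPM in control (SD, n = 2) to 4.47 ± 1.25 CPM in KO (n = 7; log2 fold change 1.33, SE 0.44, adjusted p = 0.0683), and Gm24452, from 4.18 ± 1.73 to 9.36 ± 2.35 CPM (1.16, SE 0.37, adjusted p = 0.0633). The other 6 had log2 fold changes of 0.68 to 1.10 and did not pass. Of all genes tested, 11.9% were called higher, and 34.4% had all knockout libraries on a single side of both controls. Both calls were lost with no filter on low counts, at a threshold of 0.05 and without either control library. Over all alternatives the adjusted p reached 0.450 for Gm25855 and 0.440 for Gm24452. With Snhg1 itself absent from the counted annotation, reads over these genes could come from Snhg1 transcripts as well as from the snoRNAs, and the counts do not separate them. Slc3a2, the heavy chain of amino acid transporters, starts 106 bp from Snhg1 and fell from 621 ± 85.0 CPM in control to 245 ± 75.4 CPM in KO (log2 fold change -1.34, SE 0.27, adjusted p = 0.0102), with every knockout library below both controls.

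Kcnq1ot1 rose in both clones, and by more in KO2. It is an unspliced RNA of 93092 bases on chromosome 7 (chr7:143203458-143296549, minus strand), antisense to and within Kcnq1. Its level was 5.07 and 5.0 CPM in control, 9.35, 9.25 and 8.71 CPM in KO1, and 22.0, 24.6, 11.8 and 19.8 CPM in KO2. The 3 groups did not overlap. The log2 fold change was 1.58 in KO (SE 0.49, adjusted p = 0.0567), 0.85 in KO1 (SE 0.31, adjusted p = 0.077) and 1.95 in KO2 (SE 0.32, adjusted p = 0.00379). The difference between the clones passed the threshold (KO2 above KO1 by 1.10, SE 0.26, adjusted p = 0.0283), and Kcnq1ot1 was the 1 member of 5 for which it did. Of all genes, 10.2% were called higher and 9.43% lower in KO2 against KO1, so this count does not set the members apart. Without KO1 replicate 2 the difference in Kcnq1ot1 was no longer called (adjusted p = 0.116). The KO and KO1 calls were lost without either control library, where the adjusted p reached 0.310 and 0.279, and the KO1 call also without any of the KO1 libraries (adjusted p up to 0.152) and with no filter on low counts (0.134).

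Across the 9 libraries, Gas5, Snhg12 and Kcnq1ot1 had all knockout libraries on a single side of both controls, and Malat1 and Neat1 did not. This was the case for 34.4% of all genes tested.

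**Figure D3:**
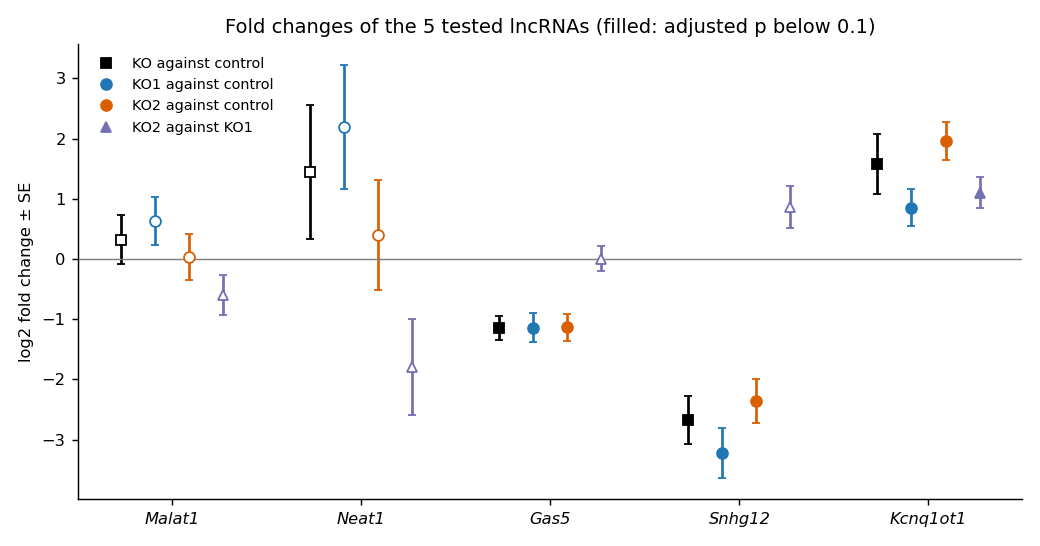
The vertical axis is the log2 fold change with its standard error for the 5 lncRNAs tested, in KO (7 libraries), KO1 (3) and KO2 (4) against control (2) and in KO2 against KO1. Filled points passed an adjusted p below 0.1: Gas5 and Snhg12 lie below 0 and Kcnq1ot1 above 0 in all 3 comparisons with control.

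Genes of the imprinted clusters around Kcnq1ot1, H19 and Meg3 and of other imprinted regions were mostly at low levels. Of 26 listed, 14 were tested, of which 2 were called higher and 1 lower in KO against control. These counts are near the 11.9% and 10.7% of all genes and are no result about the list. Tssc4 and Nap1l4, both in the region of chromosome 7 that holds Kcnq1ot1, rose by 1.38 (SE 0.24, adjusted p = 0.00601; 19.2 ± 2.41 CPM in control, 50.1 ± 9.68 in KO) and by 0.76 (SE 0.17, adjusted p = 0.0166; 132 ± 2.02 and 224 ± 30.8 CPM). Cdkn1c, a cell-cycle inhibitor that Kcnq1ot1 is known to silence, was called lower at very low levels (0.269 ± 0.00789 CPM in control, 0.0373 ± 0.0457 CPM in KO, log2 fold change -2.90, SE 0.91, adjusted p = 0.0578), and is named after its values were seen. Kcnq1 itself had 0.465 ± 0.162 CPM in control and 0.166 ± 0.125 CPM in KO and was not called (-1.53, SE 0.83, adjusted p = 0.240). Kcnq1ot1 lies inside Kcnq1, so the limit on strand given for Gas5 holds here too.

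For Malat1, whether KO2 was called rested on 1 library. The gene is a single exon of 6983 bases on chromosome 19 (chr19:5795690-5802672, minus strand). Its level was 506 and 557 CPM in control, 837, 873 and 765 CPM in KO1, and 413, 1009, 417 and 341 CPM in KO2. The KO1 libraries lay above both controls, and the KO2 libraries lay below them except KO2 replicate 2, the highest of all 9. With all libraries the log2 fold change was 0.32 in KO (SE 0.40, adjusted p = 0.625), 0.63 in KO1 (SE 0.40, adjusted p = 0.285) and 0.04 in KO2 (SE 0.38, adjusted p = 0.957). The KO2 value was -0.02 without control replicate 1 and was not called. Without KO2 replicate 2, KO1 was called higher than control (0.63, adjusted p = 0.0135), KO2 was called lower (-0.45, adjusted p = 0.0448) and KO2 was called lower than KO1 (-1.07, adjusted p = 0.0043). That library is the outlying KO2 value of Malat1, and of Neat1 below, so leaving it out narrows the spread of the tested values. For both genes, the calls without it are a description of this dependence and no separate test.

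Neat1, the neighbor of Malat1 (chr19:5824708-5845478, minus strand), varied over a wider range. Its level was 187 and 332 CPM in control, 1494, 1390 and 681 CPM in KO1, and 82.7, 1019, 166 and 107 CPM in KO2. All KO1 libraries lay above both controls, whereas 3 of 4 KO2 libraries lay below both. With all libraries the log2 fold change was 1.44 in KO (SE 1.11, adjusted p = 0.409), 2.20 in KO1 (SE 1.03, adjusted p = 0.154) and 0.40 in KO2 (SE 0.91, adjusted p = 0.779). Without KO2 replicate 2, KO1 was called higher (2.19, adjusted p = 0.00834), KO2 was called lower (-1.13, adjusted p = 0.0679) and the clones differed by 3.32 on the log2 scale, with KO2 lower (adjusted p = 0.00436). In a fit of the control and KO1 libraries only, both RNAs were called higher in KO1, Malat1 by 0.64 (adjusted p = 0.00561) and Neat1 by 2.20 (adjusted p = 0.00542). For both RNAs, KO2 was thus called lower than control only without KO2 replicate 2.

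**Figure D4:**
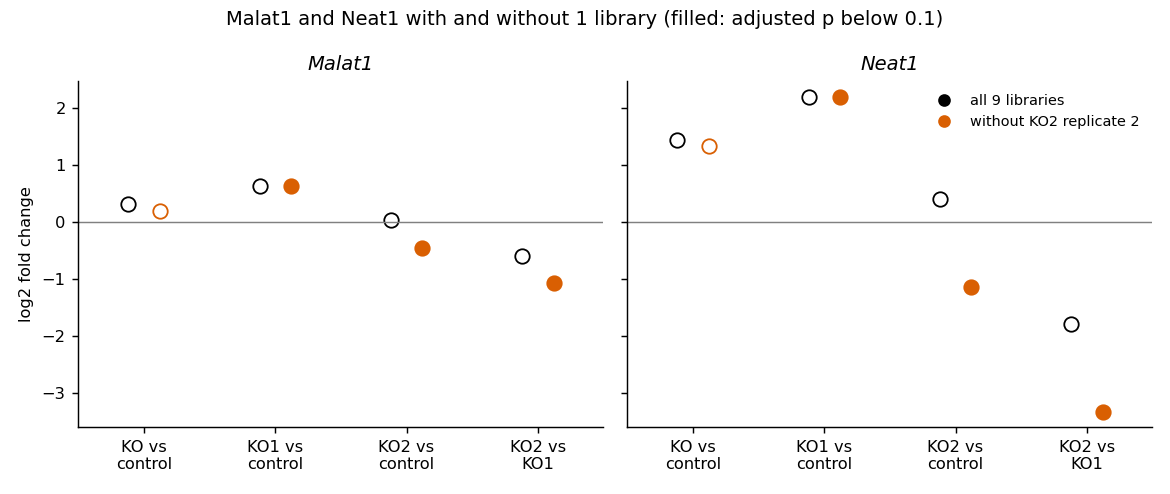
The vertical axis is the log2 fold change of Malat1 (left) and Neat1 (right) in 4 comparisons, with all 9 libraries (black) and without KO2 replicate 2 (orange). Filled points passed an adjusted p below 0.1; none of the black points did, and 3 of 4 orange points did for each gene, with KO2 against control changing sign.

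Paraspeckle proteins are the partners of Neat1. Of 17 tested, 3 were called higher and 2 lower in KO against control, the median log2 fold change being 0.25. These counts too are near the 11.9% and 10.7% of all genes. Pspc1, a core paraspeckle protein, rose by 1.06 (SE 0.20, adjusted p = 0.00912), from 32.7 ± 0.221 CPM in control to 68.4 ± 11.5 CPM in KO, and its partner Nono rose by 0.62 (SE 0.22, adjusted p = 0.0823). Smarca4, a chromatin remodeler reported in paraspeckles, rose by 1.08 (SE 0.16, adjusted p = 0.0036). Sfpq, the third member of the core family, fell by 0.47 on the log2 scale (SE 0.15, adjusted p = 0.0641), and Cpsf6, a 3′ end processing factor, by 0.37 (SE 0.13, adjusted p = 0.0779). Between the clones, 1 of the 17 was called higher and 1 lower in KO2, against 10.2% higher and 9.43% lower of all genes. Frmd8, a protein-coding gene 4224 bp from Neat1, rose in KO from 52.8 ± 0.652 to 90.6 ± 16.8 CPM (log2 fold change 0.78, SE 0.22, adjusted p = 0.0373). Of 22 protein-coding genes tested within 50 kb of a member, Frmd8, Taf6l and Slc3a2 were the 3 called. Of all genes tested, 22.6% were called in either direction.

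H19, which is abundant in the fetus and low in most adult cells, had 2 and 0 counts in control, 24, 0 and 0 in KO1, and 1, 1, 7 and 1 in KO2, so that KO1 replicate 1 held 24 of the 34 counts in knockout libraries. No difference was tested. Meg3 had 0 counts in all 9 libraries. In a single library a count of 0 allows up to 3 counts, or 0.0491 to 0.118 CPM depending on depth, for counting error only. Of 26 other lncRNAs listed, 24 had a row and 16 were tested, of which 0 were called higher and 3 lower in KO, with a median log2 fold change of -0.27. Of all genes tested, 11.9% were called higher and 10.7% lower, with a median of 0.06. Over all alternatives, the number of these lncRNAs called lower ran from 1 to 5 and called higher from 0 to 1. 1700020I14Rik fell by 1.01 (SE 0.16, adjusted p = 0.0039), Pvt1, the neighbor of Myc, by 0.86 (SE 0.23, adjusted p = 0.03), and Trp53cor1 by 2.97 from under 1 CPM (SE 0.90, adjusted p = 0.0506), the last named after its values were seen.

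Per kilobase of exon, the order of the members' levels in control was Gas5 (156 ± 20.6 CPM per kb), Malat1 (76.1 ± 5.18), Snhg12 (62.8 ± 7.88), Neat1 (12.5 ± 4.95) and Kcnq1ot1 (0.0541 ± 0.000512), as mean ± SD of 2 libraries. The control libraries of Malat1 and Snhg12, neighbors in this order, ranged from 72.4 to 79.8 and from 57.2 to 68.3 CPM per kb. In KO1 the order changed, with Malat1 (118 ± 7.83) above Gas5 (70.4 ± 11.3), Neat1 (57.2 ± 21.3) and Snhg12 (6.70 ± 0.527). In KO2, Malat1 (78.0 ± 44.6) and Gas5 (70.8 ± 17.5) overlapped, as did Neat1 (16.5 ± 21.7) and Snhg12 (12.3 ± 6.54). With the longest transcript in place of all exons, Snhg12 in control came to 98.0 and stood above Malat1.

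The patterns across libraries were compared by Pearson correlation of log2(CPM + 1) over the 9 libraries, among 12027 genes. These libraries fall into 3 groups, so a high value can come from the group means alone. Closest to Gas5 were Zfas1 (r = 0.977), Rpl24 (0.964) and 2410006H16Rik (0.964). Closest to Snhg12 were Faf1 (0.992), Slc25a33 (0.990) and Zdhhc21 (0.985). Closest to Kcnq1ot1 were Tns3 (0.983), Tmsb10 (0.981) and Grk6 (0.976). Malat1 was closest to Osbpl5 (0.958), Mus81 (0.956) and Neat1 (0.954), and Neat1 to Copb1 (0.981), Slc35a3 (0.955) and Malat1 (0.954). Gas5 and Snhg12 correlated at 0.914 and Malat1 and Snhg12 at -0.07.

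MaTAR25 ChIRP peaks were assigned by the nearest promoter. The lists held 76806 peaks for the 4T1 total pool, 61311 for the odd pool, 64607 for the even pool and 70329 for NDL, and of these 3, 1, 3 and 3 were nearest to a member. They lay at Malat1, Meg3 and, in NDL only, H19. The other 6 members had none. Over all genes, 28475, 25589, 25111 and 27539 had at least 1 nearest peak in these lists. The total of annotated genes was not counted, so no share of all genes stands beside the members. Shares of all genes with a peak in all 4 lists, or with a peak inside the gene, were not computed either. The counts at members are thus a description only. Each list is a pool of replicates made by the authors, so peaks have no error, and the peak score is the value that the HOMER software gave.

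Meg3 was the 1 member with a peak in all 4 lists, although no Meg3 RNA was counted in 4T1 cells. The peak covered chr12:109541476-109541975 in the total and even pools, with its middle 724 bp inside the gene, and the middle lay 772 bp inside in the odd pool and 812 bp inside in NDL. Its score was 61.6 in the total pool, 22.6 in the odd pool, 35.1 in the even pool and 55 in NDL. These scores ranked 27137 of 76806, 48011 of 61311, 34817 of 64607 and 25639 of 70329. A further peak inside Meg3 (chr12:109559750-109560249) was in the odd pool only, with a score of 16.6. The peak near the start held an exact match of 12 bases to MaTAR25 oligo 6, an even-numbered oligo, and it was listed in the odd pool as well. The genome stretch (plus strand) with 20 bases on either side and the oligo are shown, with the match in capitals.
Meg3, chr12:109541771-109541822: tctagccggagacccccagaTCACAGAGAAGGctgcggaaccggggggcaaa
MaTAR25 oligo 6: agTCACAGAGAAGGacggcg

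At least 12 bases of a MaTAR25 oligo, on either strand, lay in 24.2% of all total pool peaks. The shares were 23.8% of odd pool, 19.8% of even pool and 23.6% of NDL peaks. These shares take all 14 oligos together, and the share for oligo 6 alone was not computed. Matches of at least 12 bases to the 8 oligos of the Ppib control lay in 0.316% to 0.351% of peaks. The peaks were called over the Ppib pulldown, and that pool has fewer oligos, so these shares are not a like comparison.

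At Malat1, peaks lay on both sides of the gene and inside it. A peak upstream of the start, with its middle at -8193 bp, scored 223.3 in the total pool (chr19:5810553-5811177, rank 5265 of 76806) and 125.1 in the even pool, and none was listed there in the odd pool or NDL. A peak with its middle 1411 bp inside the gene scored 115.4 in the total pool (chr19:5800949-5801574), 71.3 in the even pool and 116.6 in NDL. In the lists it is assigned to Gm37376, a transcript annotated within Malat1, and not to Malat1. A peak past the 3′ end scored 46.3, 84.8 and 27.8 in the same 3 lists. The odd pool had none of the 3 and no peak within 10 kb of Malat1. It listed a peak between Malat1 and Neat1, within 10 kb of Neat1, at chr19:5819141-5819766, with a score of 324.3. No Malat1 peak held an oligo match of 12 bases; the longest was 10.

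**Figure D5:**
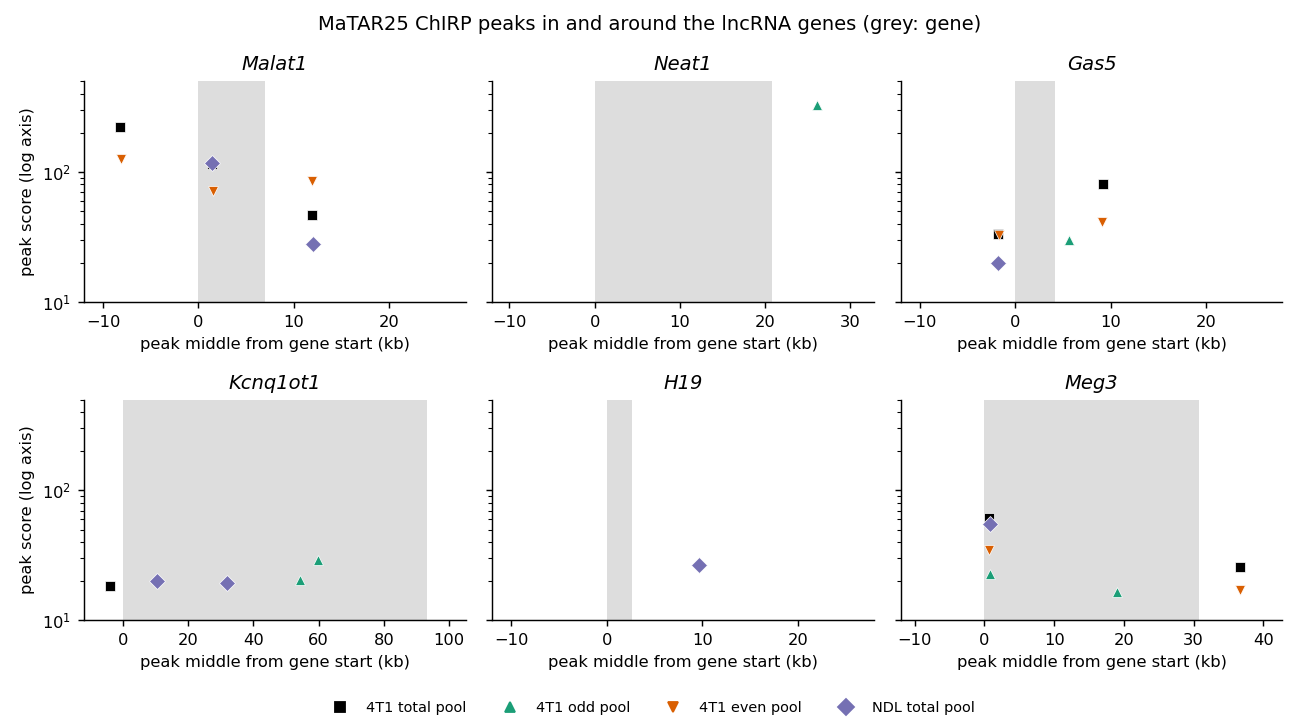
Each point is a ChIRP peak inside, within 10 kb of, or nearest to a member; the horizontal axis is the distance of its middle from the gene start in kb, positive in the direction of transcription, and the vertical axis is the peak score on a log scale. Grey marks the gene; the peak near the Meg3 start is in all 4 lists, and no position inside Kcnq1ot1 is shared between lists.

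By overlap with the gene instead of nearest promoter, the counts were 2, 4, 2 and 4 for the total, odd, even and NDL lists, at Malat1, Meg3 and Kcnq1ot1. Kcnq1ot1 held 2 peaks in the odd pool (scores 29.4 and 20.3) and 2 in NDL (20.1 and 19.4), with no position shared between lists. The lower of the odd pool pair held 12 bases of MaTAR25 oligo 3, an odd-numbered oligo, and is shown in the same way.
Kcnq1ot1, chr7:143242070-143242121: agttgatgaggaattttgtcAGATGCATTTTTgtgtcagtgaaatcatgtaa
MaTAR25 oligo 3: tcctggAGATGCATTTTTtc

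Neither Gas5 nor Snhg12, the members that fell, held a peak in any list. These genes span 4118 and 2402 bp, against 93092 bp for Kcnq1ot1. The counts by overlap were not corrected for gene length, so the lack of a peak in so short a gene is a description only. Around Gas5 the nearest peaks lay upstream, with middles from -1846 to -1745 bp, in an exon of Zbtb37, with scores of 33, 32.8 and 19.8 in the total, even and NDL lists. Others lay past the 3′ end in the 4T1 lists. Snhg1, Snhg12 and Dancr had no peak within 10 kb in any of the 4 lists.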

How the data were processed

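RNA-seq values are the deposited read counts per gene of 9 libraries; from single-end sequencing of polyadenylated RNA, the authors aligned reads to GRCm38 (STAR) and assigned them to GENCODE vM5 genes (HTSeq-count). No source used here gives the strand setting. Peak scores are the deposited scores that the authors obtained with HOMER from pooled ChIRP replicates over Ppib. Gene names and positions come from GENCODE vM21, which matched 44585 of 45318 identifiers. Counts were tested with edgeR 4.0.16 (quasi-likelihood, TMM, filterByExpr, Benjamini-Hochberg over all genes, threshold 0.1), KO against control with KO1 and KO2 as 1 group and the others in a 3-group fit. CPM uses TMM library sizes, and CPM per kb the union of exons. DESeq2 1.42.0 was an alternative. Rows naming no gene (33.9% to 37.0% of reads per library) were left out. The fits were checked on simulated data. The members and gene lists were chosen with earlier results of these data known. Genes named are the members, overlapping genes, protein-coding genes within 50 kb, up to 3 called genes per list and direction at a mean of 1 CPM or more, and the 3 closest in pattern. Oligo matches were exact and at least 12 bases.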

Additional observations from a re-analysis of the deposited data

Results flagged for a closer look

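In KO2 replicate 2, Malat1 stood at 1009 CPM and Neat1 at 1019 CPM, each separated from the other 3 KO2 libraries by a gap of 0.887 and 0.911 of the group's whole range, above Dixon's 95% critical value for 4 samples. The same library had the highest Snhg12 level of KO2, at 51.7 CPM, with a gap of 0.682 that did not exceed the critical value. It was the shallowest library, and the part of depth, of its Epcam level and of the repeated rows in its file was not tested. H19 in KO2 replicate 3, at 0.158 CPM, was separated likewise (0.843), on 7 counts. In all, 6 such checks were made, and chance alone separates about 1 in 20 groups in this way. The change of Kcnq1ot1 differed between the clones, with KO2 above KO1 by 1.10 on the log2 scale (edgeR adjusted p = 0.0283).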

How the results depend on the processing

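Snhg12 was called lower in KO, KO1 and KO2 against control under all 16 alternatives of each comparison, with log2 fold changes from -3.34 to -2.10. Kcnq1ot1 was called higher in KO2 under all 16 (1.82 to 2.13). Gas5 was lost from all 3 comparisons without control replicate 1 alone (adjusted p = 0.121, 0.106 and 0.101). In KO2 against control, Malat1 (-0.45) and Neat1 (-1.13) changed sign and were called without KO2 replicate 2. Malat1 also changed sign, uncalled, without control replicate 1 (-0.02). Leaving out each library in turn gave -0.45 to 0.21 for Malat1 and -1.13 to 0.88 for Neat1.

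Leaving out each library in turn gave 1 to 3, 1 to 5, 2 to 5 and 0 to 3 lncRNAs called in KO, KO1 and KO2 against control and in KO2 against KO1, and 462 to 3976, 1482 to 5661, 1366 to 5352 and 874 to 4077 genes called. The lowest counts in the comparisons with control came without control replicate 1. In KO against control 3392 genes were called, 2235 at a threshold of 0.05; in KO2 against KO1 2944 and 1643. A fit of the control and KO1 libraries only called 7752 genes in place of 4750, and 5 lncRNAs. In KO2 against KO1, DESeq2 called 2 lncRNAs and no filter on low counts 3 (Neat1, -1.82, and Snhg12 added), in place of 1.

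No label says that the replicate numbers pair the libraries. Deviations from the group mean of same-numbered libraries correlated at -0.196 to 0.056 over 7 pairs. With 2 control libraries these deviations mirror each other, so the values are not independent and cannot exclude a pairing. With the number as a replicate block, 1952 genes were called in KO against control and 1736 genes and 2 lncRNAs in KO2 against KO1; Kcnq1ot1 in KO was lost (adjusted p = 0.112), and Neat1 in KO1 (2.68, adjusted p = 0.0585) and Snhg12 between the clones (1.04, adjusted p = 0.0937) were gained. No other call on the 5 lncRNAs changed under it. Of the 27 other genes called in KO, 15 were lost with the block and 8 with no filter on low counts.

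With scores of at least 100, the peaks nearest to members were 1, 0, 1 and 0 in the total, odd, even and NDL lists. By overlap with the gene the odd pool gave 4 in place of 1. An oligo match of at least 14 bases was in 0 of these peaks, and one of at least 10 bases in 2, 1, 3 and 2. The cause of these shifts was not tested. H19 and Meg3 had too few counts to be tested under the main settings.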
